A study of Mus musculus with 3 samples.

Results

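Matrix metalloproteinases (MMPs) and their tissue inhibitors (TIMPs) were measured as RNA in cells from mouse ankle synovium kept on soft, intermediate and stiff plates. The 10 genes were taken by name from the deposited table: the 7 enzyme genes Mmp2, Mmp3, Mmp9, Mmp10, Mmp13, Mmp14 and Mmp19, and the 3 inhibitor genes Timp1, Timp2 and Timp3. All 10 were found among its 56833 genes. On the stiff plate 4 enzymes, Mmp3, Mmp13, Mmp9 and Mmp10, stood between 1.89-fold and 2.20-fold below the soft plate, while Timp2 and Timp3 stood 1.56-fold and 1.53-fold above it. Mmp2, Mmp14 and Mmp19 differed little between the plates, and Timp1, by far the most abundant, was 1.19-fold lower on the stiff plate.

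MMPs are zinc-dependent proteases that cut collagens, proteoglycans and other matrix proteins. They are made as inactive proenzymes, and TIMPs block the active enzymes by binding their catalytic site. In the joint, synovial fibroblasts and macrophages make MMPs, and their release is known to take part in cartilage and bone damage in arthritis.

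All cells came from mice of the genotype Efhd1CreER; Ai9, in which a CreER recombinase driven from Efhd1 switches on the red reporter tdTomato. Synovium was digested with enzymes, tdTomato+ cells were sorted, which are labelled as telocytes, stromal cells with long thin processes. The cells then spent 24 h on collagen-coated plates with a stiffness of 0.2 kPa (called soft here), 8 kPa (intermediate) or 64 kPa (stiff), and stranded mRNA libraries were made. The age and number of animals are not given in the sources used here, and every group shares the same genotype, reporter and sort. Series and sample titles name the question as how matrix stiffness affects these cells and their change into fibroblasts.

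Each level had 1 library, so no difference has a replicate check, no test was possible, and differences between cultures cannot be told apart from those between stiffness levels. Values are normalized counts, that is gene counts divided by 1 size factor per library. The libraries held 25487064 to 28081600 reads, so that 1 read was worth 0.943 to 1.03 normalized counts. The log2 ratios were taken with a pseudocount of 1, and the intervals beside them are exact 95% Clopper-Pearson intervals of the read shares. They cover counting error only, and can be too narrow even for that, because amplified reads are not independent molecules. In bulk RNA, fewer cells of a type and less RNA per cell cannot be told apart. Of 7 telocyte markers 4 reached a mean level of 50 normalized counts. Between stiff and soft, Cd34 (0.44) and Vim (0.25) were above 0 and Foxl1 (-0.36) and Pdgfra (-0.20) below it, with a median log2 ratio of 0.025. Efhd1, also on that list, had 10, 5 and 3 reads at 0.2, 8 and 64 kPa, and its stiff to soft interval (from -4.24 to 0.22) includes 0. Below that level too, Ano1 had 26, 49 and 50 reads, with a ratio of 0.92 (interval from 0.23 to 1.69). Kit had 41, 41 and 44 reads, with a ratio of 0.10 (interval from -0.54 to 0.75). The reporter tdTomato had 818, 1193 and 2668 normalized counts, with a stiff to soft log2 ratio of 1.70 (interval from 1.59 to 1.82), and its part in the results was not tested. The 12 macrophage markers summed to 28468, 35159 and 61449 normalized counts in that order, and 12 of 12 were higher in the stiff than in the soft library. Of the 11873 genes whose mean level was 50 or above, 6064 had a positive stiff to soft log2 ratio and 5809 a negative one. None of the 12 macrophage markers was without reads, from Lyz2 at 18362, 21482 and 39173 to Marco at 170.2, 316 and 686. The 8 fibroblast markers summed to 227689.6, 273992 and 326317, of which Col1a1 alone gave 78648, 110715 and 151834. Of these 8, 4 were higher and 4 lower in the stiff than in the soft library, beside 6064 and 5809 of those 11873 genes. The median log2 ratio of the 8 markers was 0.12. The higher ones were Col1a1 (0.95), Thy1 (0.37), Col1a2 (0.28) and Col3a1 (0.26). The lower ones were Dcn (-0.44), Lum (-0.36), Pdgfra (-0.20) and Pdgfrb (-0.0062), the last with an interval (from -0.05 to 0.04) that includes 0.

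The 10 genes spanned a wide range of abundance. Divided by the length of the canonical transcript, Timp1 led in each library, at 146817, 138050.3 and 123872 normalized counts per kb at 0.2, 8 and 64 kPa. It ranked 3rd, 3rd and 4th among all annotated genes of the table with a transcript of at least 200 nt, and took 0.526%, 0.489% and 0.428% of all reads. Mmp3, or stromelysin-1, was the most abundant enzyme, at 24303 normalized counts per kb on the soft and 11041 on the stiff plate. Its rank among all annotated genes moved from 61 at 0.2 kPa to 83 at 8 kPa and 146 at 64 kPa. Mmp13 came next on the soft plate with 7008 per kb, and Mmp2 next on the stiff plate with 3963 per kb. Mmp9 was the least abundant member, at 288.6, 242.2 and 150.8 per kb. Mmp3 made up 62.0%, 54.6% and 49.4% of the summed enzyme level per kb, and Timp1 94.8%, 94.3% and 90.9% of the summed inhibitor level per kb.

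**Figure D1:**
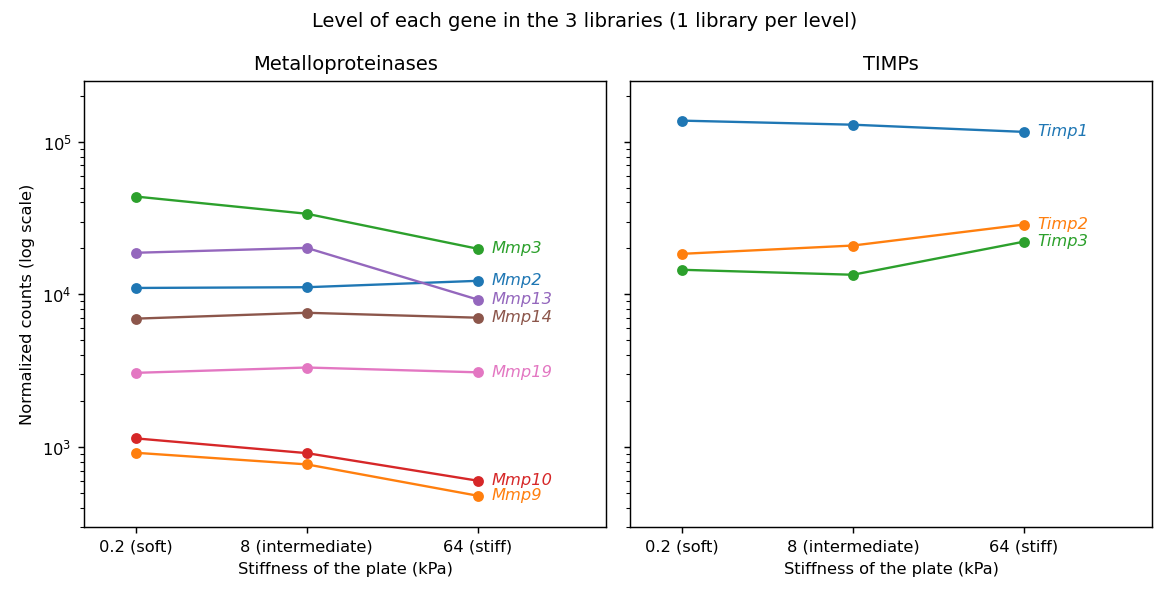
Normalized counts (log axis) of the 7 enzyme genes (left) and the 3 inhibitor genes (right) against plate stiffness in kPa; each point is 1 library and lines join the points of a gene. Mmp3, Mmp10 and Mmp9 drop at each step, Mmp13 drops between 8 and 64 kPa, and Timp2 and Timp3 are highest at 64 kPa.

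Mmp3 and Mmp10 encode the stromelysins, which cut proteoglycans, fibronectin and many other matrix proteins and can activate other proenzymes. Mmp3 stood at 43770.3 normalized counts at 0.2 kPa, 33751 at 8 kPa and 19885 at 64 kPa. The soft library was the highest and the stiff the lowest. Between the stiff and the soft plate the log2 ratio was -1.14 (interval from -1.16 to -1.11), and the intermediate library had reached 32.9% of that change. Mmp10 had 1139, 912 and 601 normalized counts, in the same order. Its level also stepped down with each level of stiffness, with a stiff to soft log2 ratio of -0.92 (interval from -1.07 to -0.78) and 34.8% of the change at 8 kPa. The transcripts of Mmp3 and Mmp10 are 81.2% identical over 1338 nt, and how reads that fit both were counted is not given in the sources used here, so the smaller Mmp10 count is the less certain.

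Mmp13 encodes collagenase-3, the main enzyme that opens fibrillar collagen in mouse joints and a known mediator of cartilage loss. It stood at 18731 normalized counts at 0.2 kPa, 20166 at 8 kPa and 9233 at 64 kPa. Unlike the stromelysins, it was highest on the intermediate plate, with a log2 ratio to soft of 0.11 (interval from 0.08 to 0.14). From intermediate to stiff it fell by 1.13 on the log2 scale (interval from -1.16 to -1.09), and the stiff to soft log2 ratio was -1.02 (interval from -1.06 to -0.98).

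Mmp9 encodes gelatinase B, which digests denatured collagen and basement membrane collagen and is made by macrophages and neutrophils as well as by stromal cells. Its level was 917, 769 and 479 normalized counts at 0.2, 8 and 64 kPa. The stiff library was the lowest, with a log2 ratio to soft of -0.93 (interval from -1.10 to -0.77), and 27.0% of that change was present at 8 kPa. Macrophage markers moved the other way over the same plates, with Csf1r at 1267, 1725 and 3359 normalized counts, and their part in the Mmp9 values was not tested.

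Mmp2, Mmp14 and Mmp19 form the flat part of the family here. Mmp2 encodes gelatinase A, the constitutive gelatinase of fibroblasts, and had 11018, 11141 and 12270.1 normalized counts. Mmp14 encodes MT1-MMP, a membrane-anchored collagenase that activates proMMP2 with the help of TIMP2, and had 6933, 7577 and 7033. Mmp19, a secreted enzyme also found in inflamed synovium, had 3060.2, 3317 and 3085. For Mmp2 the stiff to soft log2 ratio was 0.16 (interval from 0.12 to 0.19). For Mmp14 it was 0.02 (interval from -0.03 to 0.07) and for Mmp19 0.01 (interval from -0.06 to 0.09), so that for these 2 genes no difference was detectable at this depth. The sign of both also changed when libraries were scaled by total reads, to -0.03 for Mmp14 and -0.04 for Mmp19. Mmp2 stood at 0.10 under that scaling and at 0.04 after a correction for transcript length and GC content, both below its interval. Tmem198b overlaps Mmp19 on the opposite strand and had 912.4, 918.2 and 849.1 normalized counts. Between intermediate and soft, Mmp14 and Mmp19 stood at 0.13 and 0.12, and Mmp2 at 0.02.

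The 3 inhibitors did not move together. Timp1 encodes a secreted inhibitor of most soluble MMPs and is induced by growth factors and cytokines. It stood at 137568 normalized counts at 0.2 kPa, 129353 at 8 kPa and 116068 at 64 kPa. The decline was small, with a stiff to soft log2 ratio of -0.25 (interval from -0.26 to -0.23). Timp2, which inhibits MMPs and also serves as the adaptor for proMMP2 on MT1-MMP, had 18432, 20893 and 28681. It was higher at each step, with a stiff to soft log2 ratio of 0.64 (interval from 0.61 to 0.67) and 28.3% of the change at 8 kPa. Timp3, which stays bound to the matrix and also inhibits ADAM and ADAMTS proteases, had 14496, 13446 and 22164. It was lowest on the intermediate plate, at a log2 ratio to soft of -0.11, and highest on the stiff plate, at 0.61 (interval from 0.58 to 0.64). Macrophage markers were higher in the stiff library too, and their part in the higher Timp2 and Timp3 levels was not tested. Timp1 lies inside Syn1 and Timp3 inside Syn3, each on the opposite strand. Syn1 had 121.0 to 219.5 and Syn3 16.4 to 34.9 normalized counts, both far below the inhibitor gene that lies within them. Cep295nl overlaps Timp2 on the same strand and had 22.6, 43.4 and 58.5 normalized counts, higher at each step as Timp2 was. How reads in shared stretches were assigned and whether counting used the strand are not given in the sources used here.

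**Figure D2:**
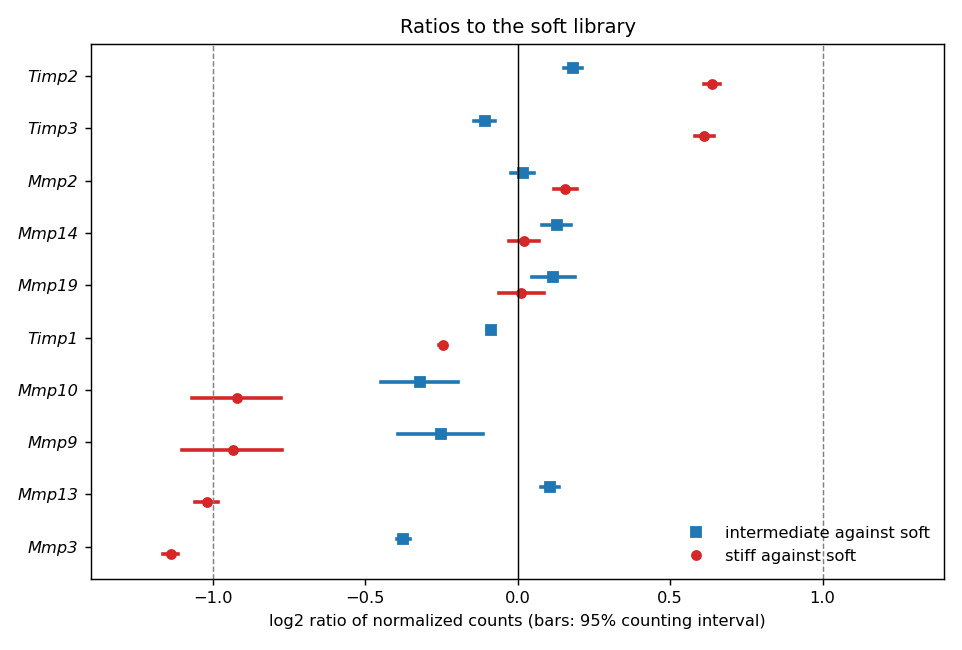
Log2 ratios of normalized counts to the soft library for each gene, with blue squares for the intermediate and red circles for the stiff library; bars are 95% counting intervals and dashed lines mark a log2 ratio of 1 in size. Mmp3 (-1.14) and Mmp13 (-1.02) lie past the line on the left, and Timp2 (0.64) and Timp3 (0.61) are the highest.

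These values were set beside those of all genes. A gene was counted as past the fold at a log2 ratio of at least 1 in size when its mean level over the 3 libraries was 50 normalized counts or more, a filter that 11873 genes and all 10 members passed. Between stiff and soft, 2 of the 10 members, Mmp3 and Mmp13, were past it, both lower, where 0.387% of all genes were lower by that much and 3.6% were past it in either direction. Mmp9 and Mmp10 were just short of it. After a correction for transcript length and GC content Mmp13, at -0.89, was no longer past the fold and Mmp9, at -1.06, was. At a log2 ratio of at least 0.5, 4 of 10 were lower (Mmp3, Mmp13, Mmp9 and Mmp10) against 3.77% of all genes, and 2 of 10 were higher (Timp2 and Timp3) against 11.8%. Of the 11873 genes, 26 had a stiff to soft ratio at or below that of Mmp3, 39 at or below that of Mmp13, 57 at or below that of Mmp9 and 62 at or below that of Mmp10. The median of the 10 members was -0.12, that of the 7 enzymes -0.92 and that of the 3 inhibitors 0.61, and the median of all 11873 genes was 0.0049.

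**Figure D3:**
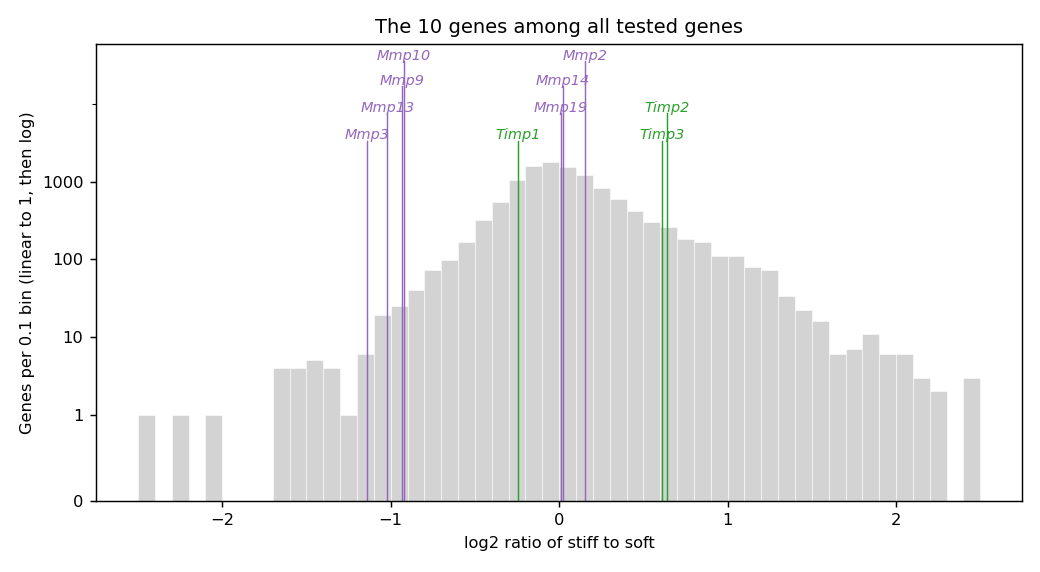
Number of genes per bin of 0.1 in the stiff to soft log2 ratio (vertical axis linear to 1, then logarithmic) for the 11873 genes with a mean of at least 50; 4 genes beyond 2.5 in size are drawn in the outermost bins. Purple lines mark enzymes and green lines inhibitors: Mmp3, Mmp13, Mmp9 and Mmp10 stand at the thin left edge, and Timp2 and Timp3 in the broad right shoulder.

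At the first step in stiffness no member reached a log2 ratio of 0.5. Between intermediate and soft, 0 of 10 were past the fold, against 0.168% of all genes, and 0 of 10 reached 0.5 in size, against 3.94% of genes higher and 0.657% lower. The largest differences were those of Mmp3 at -0.38, Mmp10 at -0.32 and Mmp9 at -0.25. Between stiff and intermediate, Mmp13 alone of the 10 was past the fold, and it was lower, against 0.421% of all genes lower by that much. At 0.5 in size, Mmp13, Mmp3 (-0.76), Mmp9 (-0.68) and Mmp10 (-0.60) were lower, 4 of 10 against 3.42% of all genes. Timp3 (0.72) was higher, 1 of 10 against 5.42%. Timp2, at 0.46, did not reach it. The comparisons share libraries and are not independent of each other.

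The 4 enzymes that were lower on the stiff plate were compared in the sequence just before their start sites. The AP-1 motif, bound by Fos and Jun factors, is the best-known element of several MMP promoters. The letters TGANTCA were searched on both strands of the 250 bases before the start of the canonical transcript. They occurred in 5 of the 10 member windows, against 4.68% of 11698 windows of tested genes. These 5 were Mmp3, Mmp10, Mmp13, Mmp9 and Mmp19, so the motif was present in each of the 4 genes that were lower and also in Mmp19, whose level differed little. Among the other genes of the chromosome 9 cluster, it was present before Mmp1a and Mmp1b, which were lower on the stiff plate at few reads, and before Mmp12, which was higher. It was absent before Mmp8 and Mmp27, which were higher, and present before Mmp7 and Mmp20, which had no reads. The last 100 bases before the start are shown for the 5 members and for Mmp12, as a neighbour that holds the letters and was higher, from GRCm39, 5′ to 3′ on the plus strand, on which all 6 genes lie, with the AP-1 letters in capitals. The windows are chr9:7445722-7445821 for Mmp3, chr9:7502253-7502352 for Mmp10, chr9:7272414-7272513 for Mmp13, chr2:164790039-164790138 for Mmp9, chr10:128626673-128626772 for Mmp19 and chr9:7347274-7347373 for Mmp12.
Mmp3: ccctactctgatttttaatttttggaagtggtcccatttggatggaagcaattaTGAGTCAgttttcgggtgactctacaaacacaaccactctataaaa
Mmp10: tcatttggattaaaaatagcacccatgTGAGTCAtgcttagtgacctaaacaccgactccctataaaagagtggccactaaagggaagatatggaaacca
Mmp13: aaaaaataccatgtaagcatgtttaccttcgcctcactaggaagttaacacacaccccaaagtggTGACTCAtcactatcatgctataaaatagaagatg
Mmp9: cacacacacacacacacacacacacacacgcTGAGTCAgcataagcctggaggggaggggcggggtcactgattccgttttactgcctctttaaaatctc
Mmp19: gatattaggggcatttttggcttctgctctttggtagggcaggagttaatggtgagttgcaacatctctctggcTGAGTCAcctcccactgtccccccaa
Mmp12: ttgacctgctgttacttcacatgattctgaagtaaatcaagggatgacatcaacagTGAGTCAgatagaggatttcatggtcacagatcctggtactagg

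The first base of the motif lay 46 bases before the annotated start in Mmp3, 73 in Mmp10, 35 in Mmp13, 69 in Mmp9, 26 in Mmp19 and 44 in Mmp12. Among the members, the letters TATAAA were found in the windows of Mmp3, Mmp10 and Mmp13, against 7.29% of all windows, and the TEAD letters GGAATG in those of Mmp2, Mmp14, Mmp19 and Timp1, against 11.5%. In the chromosome 9 cluster, TATAAA was also present before Mmp8, which was higher on the stiff plate, and before Mmp1a, Mmp1b, Mmp7 and Mmp20. It was absent before Mmp12 and Mmp27. No searched motif overlapped another in the member windows. A match describes the letters in the window and no binding was measured.

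Mmp13, Mmp3 and Mmp10 lie in a cluster of 10 metalloproteinase genes on chromosome 9 between 7272514 and 7699587 of GRCm39, a span of 427 kb. Mmp13 occupies 7272514 to 7283331, Mmp3 7445822 to 7455975 and Mmp10 7502353 to 7510241, each on the plus strand and with 10 exons in its canonical transcript. The cluster was looked at as a group after its values had been seen. Of its 10 genes, 8 had reads and 5 had a mean of at least 50. The neighbours did not share a direction. Mmp12, the macrophage metalloelastase, lies between Mmp13 and Mmp3 and had 22635, 31817 and 35563 normalized counts at 0.2, 8 and 64 kPa. Its stiff to soft log2 ratio was 0.65 (interval from 0.63 to 0.68). Mmp8, or collagenase-2, had 1411, 1857 and 2428, with a ratio of 0.78 (interval from 0.69 to 0.88).

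Below the filter, Mmp1a, an interstitial collagenase gene of the mouse, had 50, 34 and 11 reads. It was lower on the stiff plate, with a stiff to soft log2 ratio of -2.09 (interval from -3.27 to -1.22). Mmp1b, which overlaps Mmp12 on the opposite strand, had 12, 11 and 2 reads, with a ratio of -2.12 (interval from -5.79 to -0.42). Mmp27 had 30, 48 and 60 reads, with a ratio of 0.98 (interval from 0.35 to 1.68). Mmp7 and Mmp20 had no read in any library, which allows up to 3.08, 2.83 and 3.08 normalized counts, and these 5 genes below the filter are named because the cluster was described whole.

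**Figure D4:**
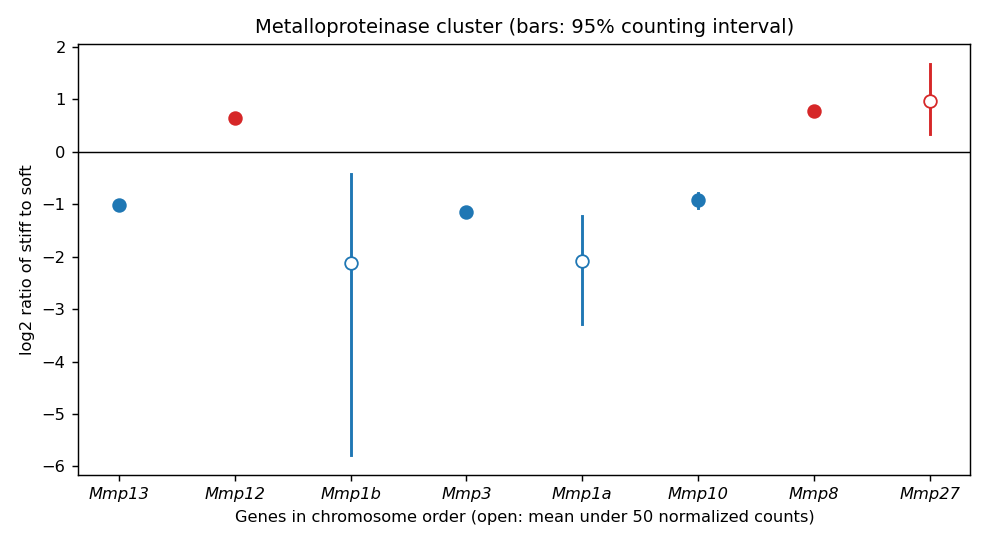
Stiff to soft log2 ratio of the 8 genes of the chromosome 9 cluster with reads, in chromosome order; bars are 95% counting intervals, blue is lower and red higher in the stiff library, and open circles mark genes with a mean under 50 normalized counts. Mmp13, Mmp3 and Mmp10 lie near -1, while Mmp12 (0.65) and Mmp8 (0.78), set between and beside them, lie above 0.

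The higher values of Mmp12 and Mmp8 went with those of the macrophage markers, of which 9 of 12 were past the fold between stiff and soft, all higher, against 3.22% of all genes, with a median of 1.26. Their part in the result was not tested. Of 7 neutrophil markers, which stand for another cell that makes Mmp8 and Mmp9, S100a9, Ly6g and Cxcr2 had no read, and Elane, Mpo and Csf3r had 0 to 2 reads in each library. S100a8 was the one marker with more, at 215.3, 207.4 and 202.0 normalized counts. Osteoclasts, which also make Mmp9, were represented by 6 markers summing to 644, 900.3 and 917 normalized counts. Acp5 (300.4, 374.3 and 478.9) and Atp6v0d2 (232.7, 378.0 and 372.3) made up most of the sum, with stiff to soft log2 ratios of 0.67 and 0.68. Oscar had 2, 5 and 5 reads and Calcr 0, 1 and 0. Dcstamp and Ocstamp, genes of osteoclast fusion, had their lowest values in the stiff library, as Mmp9 had. Unlike Mmp9, both were highest at 8 kPa. Dcstamp had 96.4, 129.2 and 56.4 normalized counts, a stiff to soft log2 ratio of -0.76 (interval from -1.28 to -0.28), and Ocstamp had 12, 14 and 4 reads, with a ratio of -1.38 whose interval (from -3.67 to 0.14) includes 0. The part of osteoclasts in the Mmp9 values was not tested. Of 5 chondrocyte markers 3 passed the filter, and Col2a1, at 209.1, 329.9 and 576.3 normalized counts, was higher on the stiff plate by a log2 ratio of 1.46. Comp, the most abundant of them, stood at 0.26 and Sox9 at 0.05, with a list median of 0.26. Below the filter, Acan had 22, 53 and 64 reads, with a ratio of 1.50 (interval from 0.82 to 2.31), and Matn1 had no read. Of 5 mast cell and basophil markers 2 passed the filter. Mcpt8 had 1134, 759.8 and 742.5 normalized counts, a ratio of -0.61, Gata2 had 710.5, 769.2 and 756.8, a ratio of 0.09, and Cpa3 and Ms4a2 had no read. None of 5 endothelial markers passed it. The part of these cells in the results was not tested.

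The other metalloproteinases and Timp4 make up a list of 17 genes, of which 7 had a mean of at least 50. Between stiff and soft 0 of 7 were past the fold, against 3.6% of all genes, and at 0.5 in size 2 of 7 were higher (Mmp12 and Mmp8), against 11.8% of all genes, and 1 of 7 was lower, against 3.77%. The lower one was Mmp11, or stromelysin-3, a gene of activated stroma, at 2724, 2298 and 1517 normalized counts and a log2 ratio of -0.84 (interval from -0.94 to -0.75). Mmp23, at 1866, 1858 and 1777, differed by -0.07 (interval from -0.17 to 0.03). The median of the 7 was 0.11, beside 0.0049 for all genes.

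Ratios of enzyme to inhibitor within a library do not depend on its size factor. Summed per kb, the 7 enzymes had a ratio to the 3 inhibitors of 0.253 at 0.2 kPa, 0.234 at 8 kPa and 0.164 at 64 kPa, a stiff to soft log2 difference of -0.62. Mmp3 and Timp1 are the largest terms of the 2 sums. Without Mmp3 the difference was -0.21, with ratios of 0.0962, 0.106 and 0.0832, so that the intermediate library was then above the soft one, by 0.15 on the log2 scale. Without Timp1 the difference was -1.44, with ratios of 4.91, 4.08 and 1.81. Over all 23 metalloproteinase and 4 TIMP genes of the table, Mmp12 included, the ratio was 0.314, 0.316 and 0.259, a difference of -0.28 and no decline from soft to intermediate. Each of the pairs examined was lower on the stiff than on the soft plate. Mmp3 to Timp1 was 0.166, 0.136 and 0.0891, and Mmp13 to Timp1 was 0.0477, 0.0547 and 0.0279. Mmp9 to Timp1 was 0.00197, 0.00175 and 0.00122. The MT1-MMP system, in which Timp2 is adaptor at low and inhibitor at high levels, had Mmp14 to Timp2 at 0.506, 0.488 and 0.330 and Mmp2 to Timp2 at 0.724, 0.646 and 0.518. These are ratios of RNA and carry no measure of enzyme activity.

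**Figure D5:**
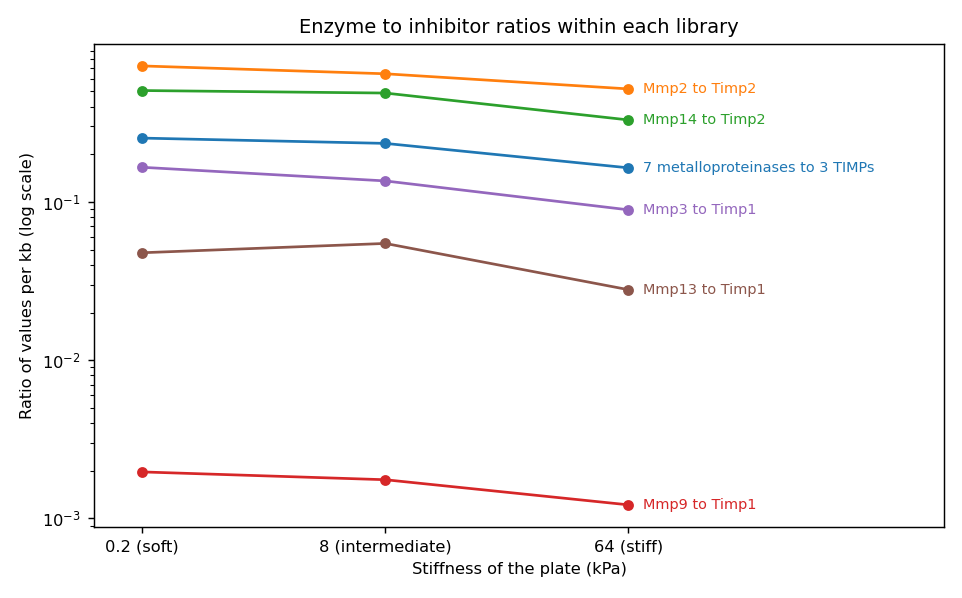
Ratios of normalized counts per kb (log axis) within each library against plate stiffness in kPa, for the sum of 7 metalloproteinases over 3 TIMPs and for 5 enzyme and inhibitor pairs; each point is 1 library. Each line ends lower at 64 kPa than at 0.2 kPa, and Mmp13 to Timp1 is highest at 8 kPa (0.0547).

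The genes that activate, anchor or clear MMPs were followed as a list of 20, of which 19 passed the filter. Between stiff and soft 1 of 19 was past the fold, against 3.22% of all genes higher by that much. This was Lrp1, the endocytic receptor that removes MMPs and their complexes with TIMPs, at 5489, 9309 and 12927 normalized counts and a log2 ratio of 1.24 (interval from 1.19 to 1.28). At 0.5 in size 6 of 19 were higher, against 11.8% of all genes, and 3 of 19 lower, against 3.77%. Among the higher ones were Lrp1, the proprotein convertases Pcsk6 (0.65) and Furin (0.61), the latter an activator of MT1-MMP, the integrin subunit gene Itgav (0.53), and the urokinase receptor gene Plaur (0.51). Lower were the integrin subunit gene Itgb3 (-0.82), the plasminogen activator gene Plat (-0.74) and Thbs2 (-0.62), whose matricellular protein helps to clear MMP2. Reck, a membrane-anchored MMP inhibitor, and Bsg, an inducer of MMPs, stood at 0.05 and -0.07. The list median was 0.37.

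TIMP3 also restrains ADAM and ADAMTS proteases. Of 5 genes listed as its targets, 4 passed the filter and 0 of 4 were past the fold, against 3.6% of all genes. Adamts5, a major aggrecanase of mouse cartilage, had 1487, 1611 and 2609 normalized counts and a stiff to soft log2 ratio of 0.81 (interval from 0.72 to 0.91). Adamts4, the other aggrecanase, had 519, 512 and 434, with a ratio of -0.26, and Adam10 and Adam17 stood at 0.0061 and 0.0039.

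Cytokines and transcription factors known to induce MMPs were a list of 21 genes, all of which passed the filter. Between stiff and soft 2 of 21 were past the fold, both higher, against 3.22% of all genes: Osm (1.55, from 62 to 184 reads) and Tnf (1.03, from 53 to 109 reads), cytokines made mainly by myeloid cells. At 0.5 in size 7 of 21 were higher, against 11.8% of all genes, and 0 lower, against 3.77%, and the list median was 0.31. Among the AP-1 genes, Fos (0.80), Jund (0.62) and Fosl1 (0.52) were higher by more than 0.5, while Junb and Fosb stood at -0.20 and -0.14. Fosb was highest at 8 kPa, with 154.8, 461 and 140.5 normalized counts. Its log2 ratio was 1.57 (interval from 1.31 to 1.85) between intermediate and soft and -1.71 (interval from -2.00 to -1.44) between stiff and intermediate. Il1b stood at -0.27, with an interval (from -0.66 to 0.10) that includes 0, and Il6 at -0.32. Il1a, at 91.2, 182.9 and 124.1 normalized counts, stood at 0.44 (interval from 0.04 to 0.86). Runx2, a factor that acts on the Mmp13 promoter, had 777, 995.5 and 1012 normalized counts, a ratio of 0.38.

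The genes nearest in pattern were found by the distance in the pair of log2 ratios to soft, over 3 libraries and 10636 named genes with a mean of at least 100. For Mmp3, the member with the lowest stiff to soft ratio, they were Rab27b, Spp1 and Mlf1, at distances of 0.079, 0.11 and 0.12. Spp1, which encodes the secreted phosphoprotein osteopontin, had 316083, 262242 and 140702 normalized counts. For Timp2, the member with the highest ratio, they were S100a11, Ppard and Acin1, at 0.0060, 0.0086 and 0.019. S100a11 had 7243, 8220.4 and 11226 normalized counts. With 3 libraries, genes can come this near with nothing else in common.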

How the data were processed

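The 3 deposited files were identical and held 1 table of 56833 genes and 3 columns, each assigned to its stiffness level by the sample title it carries. The deposited signal values are counts normalized with DESeq2, per the files' names, that is gene counts the authors divided by a size factor per library. The submitters' processing notes name bcl2fastq 2.20.0, STAR 2.7.9a, featureCounts, Subread 2.0.1, DESeq2 1.34.0 and GRCm39. The annotation and strand setting are not given in the sources used here. Division of each column by its lowest value above 0 gave whole numbers (within 0.01) for 100% of genes, and these were taken as reads. A count model needs replicates and was not fitted. The count of genes past the fold was tested on simulated data.

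Genes were matched by symbol to GENCODE vM39 of GRCm39, which gave positions, canonical transcript lengths, GC content and the windows before the starts. Transcripts were compared with BLAST 2.17.0. Computation used Python 3.11.15 with scipy 1.17.1, pandas 2.3.3, numpy 2.4.6 and matplotlib 3.10.9. Named genes are the 10 members, context genes with a mean of at least 50, the 3 genes nearest in pattern to the highest and lowest member, and the chromosome 9 cluster, added after its values were seen. Beside this rule, cell type markers, Efhd1, tdTomato and genes overlapping a member were named as checks, some of them chosen after their values were seen. One gene of the context lists is counted but not reported here. The members and lists were chosen with earlier results of these data known. Alternatives were other pseudocounts, minimum means, fold thresholds and scalings, a correction for length and GC content, and other sums for the enzyme to inhibitor ratio.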

Additional observations from a re-analysis of the deposited data

How the results depend on the processing

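The number of members past the fold was the same under every pseudocount, minimum mean, scaling and correction for length and GC content tried: 2 for 64 against 0.2 kPa, 0 for 8 against 0.2 kPa and 1 for 64 against 8 kPa. Over these settings the share of all genes past the fold in either direction ran from 2.45% to 10.3%, from 0.0824% to 6.42% and from 0.742% to 6.87%, each highest with no filter on low values. With a log2 ratio of 0.5 as the fold the counts of members were 6, 0 and 5, against 15.6%, 4.6% and 8.84% of all genes. Under the correction for length and GC content, which subtracts the median of the 200 most alike genes, the 2 genes between stiff and soft were Mmp3 and Mmp9 in place of Mmp3 and Mmp13, with Mmp9 at -1.06 and Mmp13 at -0.89. Of 30 member ratios, 3 changed sign under some alternative, and each was within 0.03 of 0 as deposited: Mmp14 and Mmp19 between stiff and soft, and Mmp2 between intermediate and soft. The scalings shifted the median stiff to soft ratio of all genes by -0.058 to -0.0076. Of 210 member values under alternatives, 152 stayed inside the counting interval and 58 left it. The stiff to soft log2 difference of the enzyme to inhibitor ratio was -0.62, and it was -0.21 without Mmp3, -1.44 without Timp1, -0.67 without division by length and -0.28 over all metalloproteinases and TIMPs of the table, the last chosen after seeing the data. The sums over other genes differ by construction. No paired analysis was possible because each level had 1 library, and for the same reason no library could be left out. Depth limits what can be said of Mmp1a, Mmp1b, Mmp27, Efhd1 and the other markers below the filter, and counting intervals hold no variation between cultures.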
